A study of Homo sapiens with 6 samples.

Results

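The genes described here are the 4 inhibitor of DNA binding genes, ID1 to ID4, and the 3 E-protein genes TCF3, TCF4 and TCF12, measured in the human colorectal adenocarcinoma cell line DLD1. All probe sets that name 1 of these 7 genes and no other gene were taken, which gave 35 of the 54613 probe sets tested and 7 of 19775 named genes. The genes were chosen by measured values, namely their level in vehicle-treated cells and their change between the groups. Their changes in this comparison are therefore given as a description, and no test of them is used as support.

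The study asked how DLD1 cells respond to SAH-BCL9B, a stabilised alpha-helical peptide modelled on the part of BCL9 that binds beta-catenin. One group was exposed to 10 µM SAH-BCL9B for 12 h (3 arrays) and the other to the DMSO vehicle for the same 12 h (3 arrays). The labels call the cultures triplicates, none of the 6 arrays is of a control peptide, and the labels give both groups no other treatment. Each array is an Affymetrix U133 Plus 2.0, which reads the 3′ part of transcripts, and values are log2 expression normalised by RMA.

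ID proteins are helix-loop-helix proteins without the basic region that contacts DNA. They pair with E proteins, the broadly expressed basic helix-loop-helix factors that bind E-box sites as dimers with each other or with tissue-restricted partners, and the resulting dimer cannot bind DNA. ID genes are well-known targets of bone morphogenetic protein (BMP) signalling through SMAD proteins, and in the intestine they are known from crypt progenitor cells and colorectal tumours. The names invite confusion: TCF4 here is the E protein also called E2-2 and TCF3 the one also called E2A, not the beta-catenin partners TCF7L2 and TCF7L1, which have often been written TCF-4 and TCF-3.

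The promoters of the ID genes are shown because ID1 and ID3 were both far lower after SAH-BCL9B while the measured change of ID2 and ID4 was small. ID4 was dim, so its small change says little. Each sequence is the 250 bases before the RefSeq gene start in GRCh38.p14, given 5′ to 3′ on the gene's strand. The windows are chr20:31605039-31605288 (plus strand) for ID1, chr2:8681806-8682055 (plus) for ID2, chr1:23559502-23559751 (minus) for ID3 and chr6:19837120-19837369 (plus) for ID4. Capitals mark every match, on either strand, to 7 motifs. They are CANNTG (the E-box), CAGAC (the SMAD-binding core), TGACG (the half-site of CREB and ATF factors) and GGCGCC (a GC-rich element bound by BMP SMADs). The others are CTTTGAT (a form of the TCF/LEF site), CCAAT and TATAAA.
ID1: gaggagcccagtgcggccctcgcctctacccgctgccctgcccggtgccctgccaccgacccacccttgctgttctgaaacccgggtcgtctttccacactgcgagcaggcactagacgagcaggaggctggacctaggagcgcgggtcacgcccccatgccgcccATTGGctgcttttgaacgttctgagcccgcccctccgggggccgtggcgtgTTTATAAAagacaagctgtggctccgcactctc
ID3: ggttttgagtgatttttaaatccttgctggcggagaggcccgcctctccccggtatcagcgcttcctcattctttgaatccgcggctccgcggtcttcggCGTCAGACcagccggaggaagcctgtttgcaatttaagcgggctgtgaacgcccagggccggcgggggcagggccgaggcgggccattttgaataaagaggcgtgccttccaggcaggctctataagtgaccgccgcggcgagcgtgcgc
ID2: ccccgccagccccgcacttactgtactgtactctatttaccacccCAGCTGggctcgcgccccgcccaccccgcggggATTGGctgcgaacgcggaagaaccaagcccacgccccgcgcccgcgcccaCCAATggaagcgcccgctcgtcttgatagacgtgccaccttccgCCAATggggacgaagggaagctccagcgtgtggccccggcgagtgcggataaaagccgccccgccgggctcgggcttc
ID4: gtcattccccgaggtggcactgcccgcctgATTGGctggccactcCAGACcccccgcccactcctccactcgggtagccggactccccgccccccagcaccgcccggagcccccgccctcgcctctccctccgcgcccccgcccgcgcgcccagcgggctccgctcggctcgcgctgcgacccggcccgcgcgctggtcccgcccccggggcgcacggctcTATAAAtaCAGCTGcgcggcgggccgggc

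An E-box stood in the ID2 window, 205 bases before the start, and in the ID4 window, 21 bases before it, and none in the ID1 and ID3 windows. Of 34941 promoter windows of this length, 61.8% held an E-box. TCF4, also lower after SAH-BCL9B, has several promoter windows, of which some held an E-box and some did not. In the ID3 window TGACG (150 bases before the start, minus strand) and CAGAC (147 bases before it) overlapped, and CAGAC also occurred in ID4, 205 bases before its start. These motifs were present in 21.2% and 38.0% of all windows. The ID1 window had TATAAA on both strands, overlapping, with the plus-strand match 31 bases before the start, and ID4 had it 29 bases before the start, against 10.8% of all windows. CCAAT occurred 1 time in ID1, 3 times in ID2 and 1 time in ID4, and was present in 32.0% of windows. GGCGCC and CTTTGAT, present in 16.4% and 2.27% of windows, were in none of the 4 ID windows. Only these exact letters were searched, so other forms of the TCF/LEF site were not counted. The matches describe letters in these windows only.

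ID3 and ID1 were the ID genes with the large differences. ID3, measured by 1 probe set (207826_s_at), was at log2 10.07, 10.04 and 9.80 in the SAH-BCL9B arrays, against 12.27, 12.22 and 12.18 in the vehicle arrays. All 3 SAH-BCL9B arrays lay more than 2 log2 units below every vehicle array, and array 3 was the lowest. This is a level 4.78-fold lower in SAH-BCL9B (log2 change -2.26 ± 0.10, SE), and by change ID3 was the most lowered of the 19775 genes when each gene is represented by its probe set with the highest mean. In bulk RNA, fewer cells of a kind and less RNA per cell cannot be told apart.

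ID1, which also has 1 probe set (208937_s_at), was at log2 12.53, 12.50 and 12.26 in the SAH-BCL9B arrays, against 13.91, 14.05 and 14.16 in the vehicle arrays. The groups were far apart here too, and SAH-BCL9B 3 was again the lowest array. The level was 3.05-fold lower in SAH-BCL9B (log2 change -1.61 ± 0.11, SE), which placed ID1 thirteenth from the most lowered end, rank 13 of 19775. Set against the vehicle mean, the 3 SAH-BCL9B arrays differed by -2.16, -2.18 and -2.43 for ID3 and by -1.51, -1.54 and -1.78 for ID1. The difference was thus larger for ID3 than for ID1 in each of the 3 treated arrays.

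ID2, the ID gene known as a beta-catenin target in colorectal cells, differed less. Its probe set 201565_s_at was at log2 14.06, 13.69 and 13.99 in the SAH-BCL9B arrays and at 14.30, 14.18 and 14.10 in the vehicle arrays. The SAH-BCL9B arrays were all below the vehicle arrays, but the gap between the nearest arrays was small. The second, 201566_x_at, read 12.25, 11.59 and 12.14 in SAH-BCL9B and 12.74, 12.51 and 12.36 in vehicle. In both, SAH-BCL9B 2 was the lowest array and set much of the difference. The log2 change was -0.28 for 201565_s_at, with a 95% interval of -0.56 to -0.00074, and -0.55 for 201566_x_at, with an interval of -0.97 to -0.12. Without SAH-BCL9B 2 the changes were -0.17 and -0.35. A further probe set, 213931_at, names both ID2 and its pseudogene ID2B and so was left out of the 35, and its change was -0.07 ± 0.14 (SE). SAH-BCL9B 2 also stood apart in the difference between 3′ and 5′ probe sets of ACTB, a measure of RNA quality. It was 0.74 log2 units, against 1.20 and 1.33 in the other SAH-BCL9B arrays and 1.21 to 1.38 in the vehicle arrays. In the same difference for GAPDH it did not stand apart. There it was at 0.14, against 0.13 and 0.09 in the other SAH-BCL9B arrays and 0.13 to 0.17 in the vehicle arrays. With the ACTB difference as a covariate, the 201565_s_at change was -0.15 and the 201566_x_at change -0.31. The part of RNA quality in the ID2 values was not tested beyond this.

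ID4, a family member best known from neural and mammary cells, was dim. Of its 5 probe sets, 4 lay below the median of all probe sets in every array, at vehicle means from log2 3.67 upward. The brightest, 209293_x_at, was at log2 6.98, 7.11 and 7.13 in SAH-BCL9B and 7.33, 7.23 and 7.29 in vehicle. Its groups did not overlap, but the change was small (-0.21, 95% interval -0.41 to -0.01). The changes of the 5 probe sets ran from -0.21 to -0.01, and 3 of the 5 had overlapping groups. Over all probe sets the SAH-BCL9B arrays lay wholly below in 9.73% and wholly above in 12.3%. Signal over background is not known for these arrays, and RMA understates changes of dim probe sets.

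**Figure D1:**
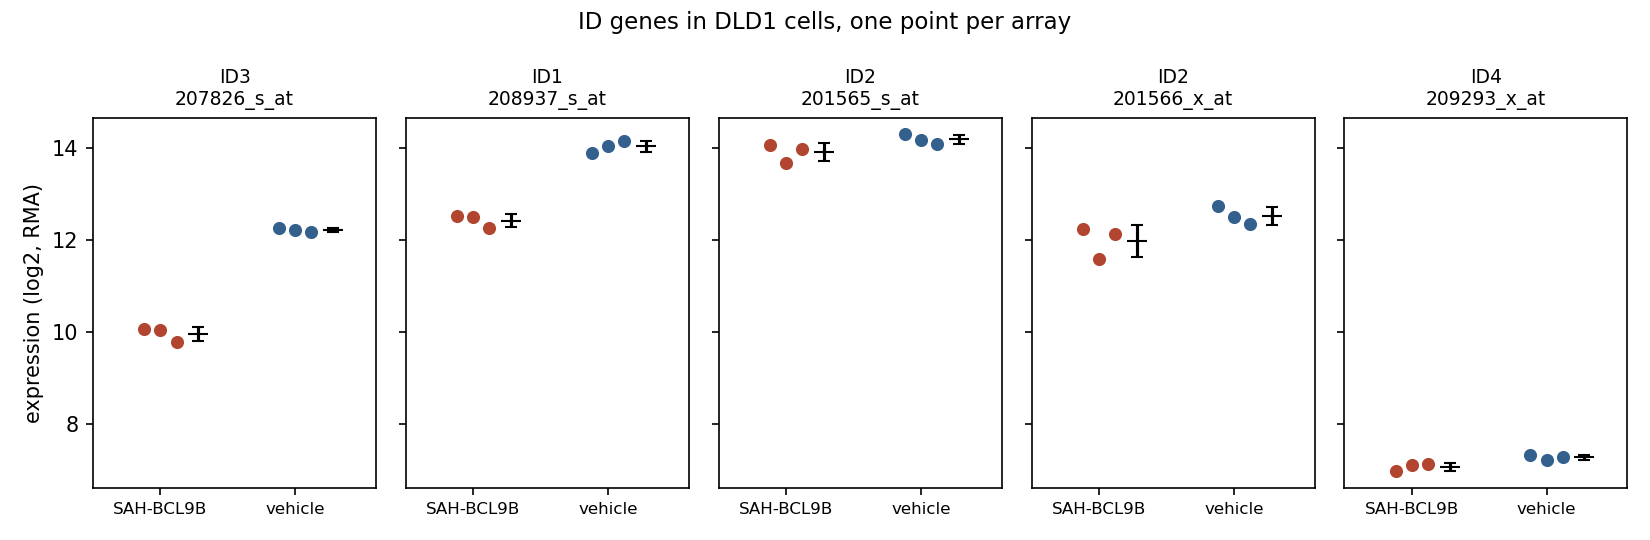
Expression (log2, RMA; y axis) of ID3, ID1, ID2 (both probe sets) and the brightest ID4 probe set, with 3 SAH-BCL9B arrays (red, left) and 3 vehicle arrays (blue, right) in each panel; black marks are group means ± SD. The groups are far apart for ID3 (change -2.26) and ID1 (-1.61) and close for ID2 (-0.28 and -0.55) and ID4 (-0.21).

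TCF4 was the E-protein gene that differed. It encodes E2-2, an E protein known for its role in plasmacytoid dendritic cells and neural development, and the array holds 8 probe sets for it. In 7 of the 8 every SAH-BCL9B array lay below every vehicle array, against 9.73% of all probe sets. The log2 changes of these 7 ran from -1.65 to -0.84, which is 3.15-fold to 1.78-fold lower in SAH-BCL9B. All 8 read the same gene on the same arrays, and that gene was chosen by its change, so nothing is read from the count of 7.

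The TCF4 probe set with the highest mean, 212386_at, was at log2 7.47, 7.05 and 7.11 in the SAH-BCL9B arrays, against 8.82, 9.04 and 8.74 in the vehicle arrays (change -1.65 ± 0.14, SE). The gap between the nearest arrays of the groups exceeded the spread within either group. By this probe set TCF4 ranked 12 of 19775 from the most lowered gene, next to ID1.

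For 203753_at the values were 7.42, 6.64 and 7.40 in SAH-BCL9B and 8.87, 8.54 and 8.64 in vehicle (change -1.53). SAH-BCL9B 2 was much the lowest array, and without it the change was -1.28. For 212382_at they were 6.90, 6.22 and 6.47 in SAH-BCL9B and 8.30, 7.77 and 7.67 in vehicle (-1.38), and for 213891_s_at 6.25, 6.03 and 6.15 in SAH-BCL9B and 7.72, 7.49 and 7.17 in vehicle (-1.32). Both show vehicle 1 as the highest array and no overlap of the groups.

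The 3 other lowered probe sets had smaller changes: -1.01 for 222146_s_at, -0.99 for 212387_at and -0.84 for 212385_at. The smallest of these, 212385_at, was at 6.60, 6.90 and 6.55 in SAH-BCL9B and 7.24, 7.77 and 7.54 in vehicle. Averaged over the 7 lowered probe sets, the level was log2 6.81, 6.46 and 6.60 in the SAH-BCL9B arrays, against 7.99, 7.91 and 7.71 in the vehicle arrays. The eighth, 228837_at, was at 4.72, 4.52 and 4.20 in SAH-BCL9B and 4.43, 4.41 and 4.39 in vehicle. This dim probe set lay below the array median throughout, and its groups overlapped (change 0.07, 95% interval -0.25 to 0.38). The mean of all 8 probe sets gave a TCF4 change of -1.08 in place of -1.65.

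**Figure D2:**
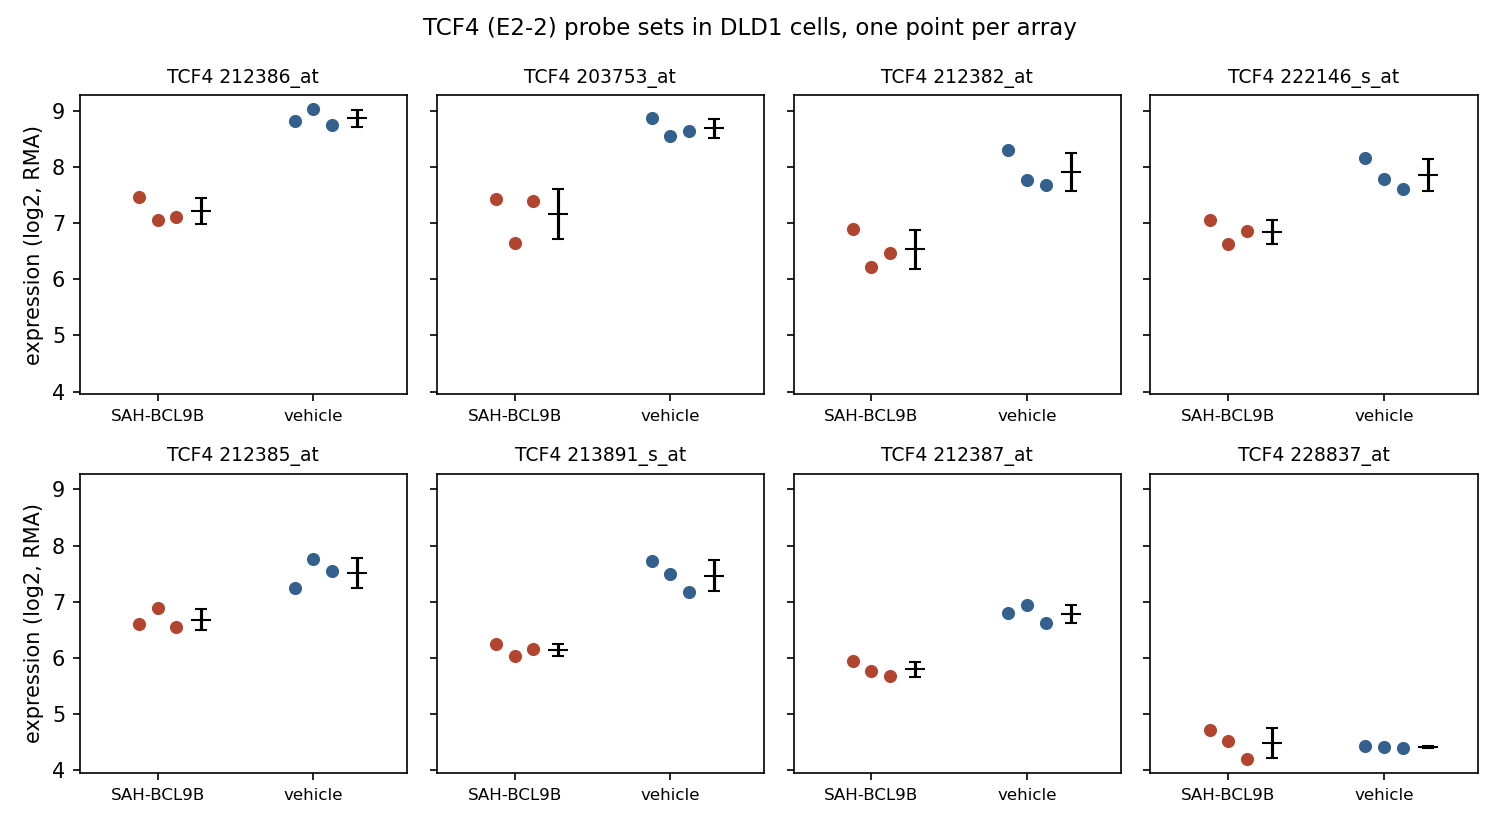
Expression (log2, RMA; y axis) of the 8 TCF4 probe sets, ordered by vehicle mean, with 3 SAH-BCL9B arrays (red, left) and 3 vehicle arrays (blue, right) in each panel; black marks are group means ± SD. The groups are apart in 7 probe sets, with changes from -1.65 to -0.84, and overlap in 228837_at.

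TCF3, which encodes the E12 and E47 proteins through alternative splicing, has 14 probe sets, and their changes straddled 0. The changes were negative in 6 and positive in 8, from -0.11 to 0.26, with a median of 0.01. The brightest, 210776_x_at, was at log2 11.22, 11.24 and 11.25 in SAH-BCL9B and 11.33, 11.26 and 11.41 in vehicle. Those groups lay side by side without overlap, and the 95% interval of the change was -0.29 to 0.10. In 12 of the 14 the groups overlapped, which is also the common case over all probe sets (9.73% wholly below, 12.3% wholly above). All 14 intervals lay within -0.51 to 0.63. Differences as large as those of ID1, ID3 or any of the 7 lowered TCF4 probe sets are outside them, while some smaller ones are not. Of the 14, 6 carry the suffix _x_at, which Affymetrix gives to probe sets that may also bind other transcripts.

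TCF12, which encodes the E protein HEB, has 4 probe sets. The brightest, 208986_at, was at log2 11.14, 10.91 and 11.10 in SAH-BCL9B and 11.14, 11.25 and 11.08 in vehicle, with overlapping groups (change -0.10, 95% interval -0.33 to 0.13). A dimmer one, 238041_at, read 8.09, 7.83 and 7.81 in SAH-BCL9B and 8.31, 8.40 and 8.16 in vehicle. These groups did not overlap, and the change was -0.38, with an interval of -0.64 to -0.12. For 233678_at the values were 6.74, 5.72 and 6.84 in SAH-BCL9B and 6.94, 6.78 and 6.81 in vehicle. One array, SAH-BCL9B 2, made that change of -0.41, which was -0.06 without it. The fourth, 215611_at, had a change of 0.15 and overlapping groups.

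Each probe set was also fitted with limma over all 54613 probe sets, with Benjamini-Hochberg adjustment and a threshold of 0.05 (adjusted p). Of the 35 probe sets, 9 passed, all lower in SAH-BCL9B: the single ones of ID1 and ID3 and 7 of TCF4. Over all probe sets, 1.37% passed as lower and 1.12% as higher, 2.50% in either direction. None of the other 26 passed, and 4 of them had an unadjusted p under 0.05, namely both of ID2, 209293_x_at of ID4 and 238041_at of TCF12. All 3 SAH-BCL9B arrays lay below all vehicle arrays in 15 of the 35, against 9.73% of all probe sets, and above them in 1, against 12.3%. Because the genes were chosen with this comparison known, nothing is read from these counts. When arrays were left out singly, 3 passed if the missing one was SAH-BCL9B 3 or vehicle 2, 4 if it was vehicle 1 and 5 if it was vehicle 3. With SAH-BCL9B 1 left out 6 passed, and with SAH-BCL9B 2 left out 9. ID3, ID1 and 212386_at of TCF4 passed in each of these fits.

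**Figure D3:**
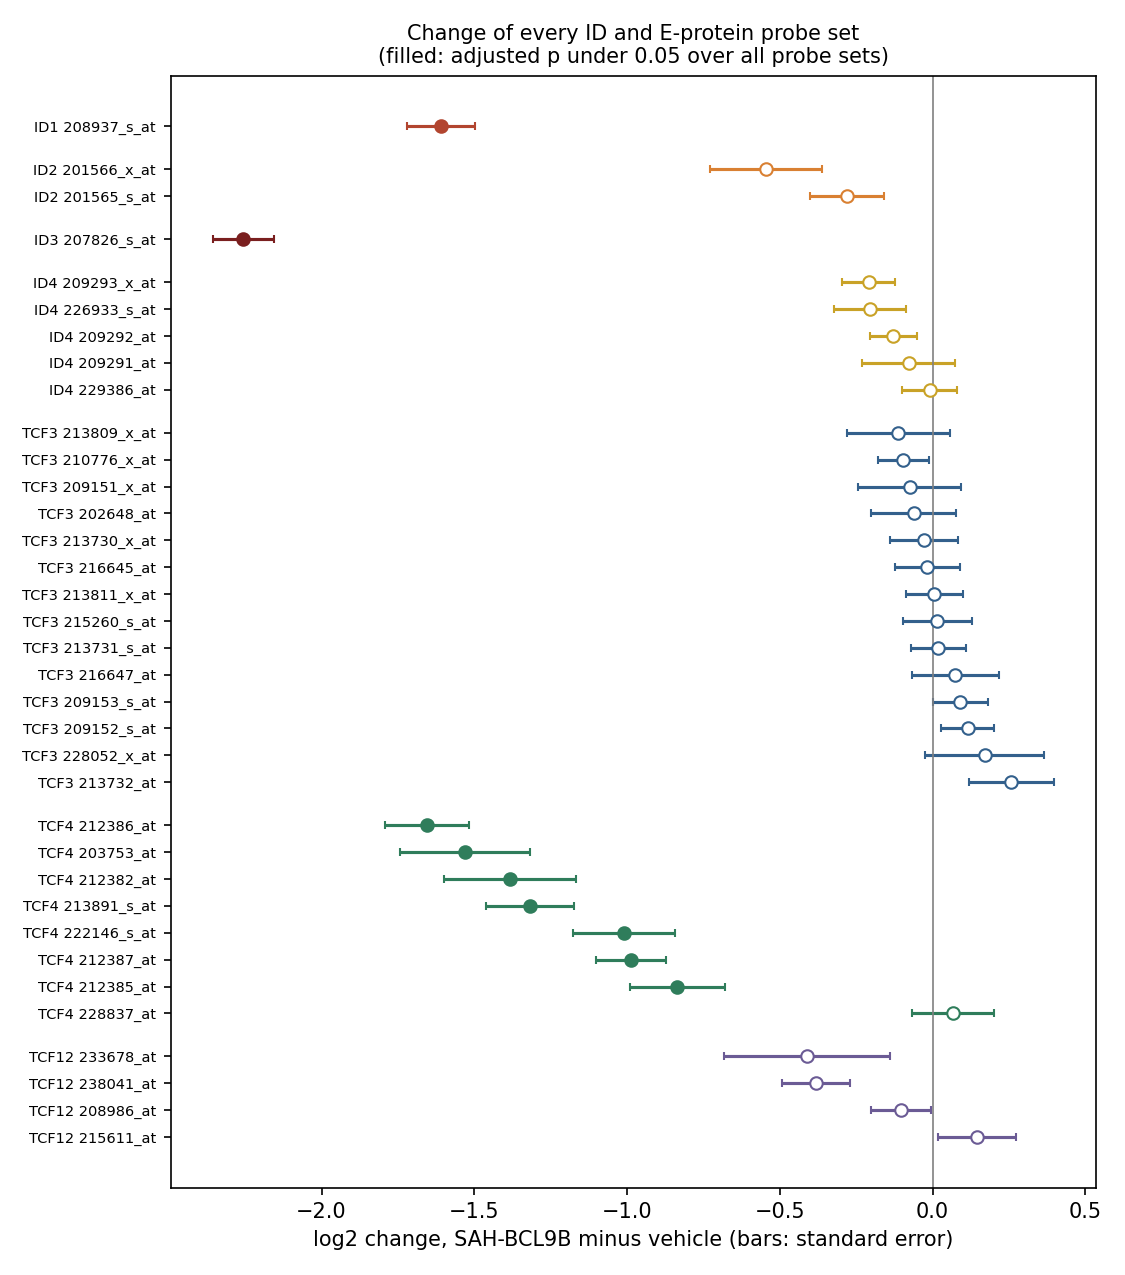
Log2 change (x axis, SAH-BCL9B minus vehicle; bars are limma standard errors) of the 35 probe sets of the ID and E-protein genes, by gene; filled points passed an adjusted p of 0.05 over all probe sets. The 9 filled points belong to ID1, ID3 and TCF4, from -2.26 to -0.84, while TCF3 lies around 0.

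Genes that pair with, act on or respond to ID and E proteins were examined in 8 lists, each gene by its probe set with the highest mean. Of 182 genes measured, 9 passed the same test, 6 lower and 3 higher in SAH-BCL9B (4.95%, against 3.53% of the 19775 genes, 1.92% lower and 1.61% higher). When vehicle 1 was left out none passed in limma (24 at an unadjusted p under 0.05), and when SAH-BCL9B 3 was left out 1 did. The count was 2 if vehicle 2 was missing, 3 if SAH-BCL9B 1 was, 4 if vehicle 3 was and 10 if SAH-BCL9B 2 was. The median change of all 19775 genes was 0.02. Counts at an unadjusted p under 0.05 are given without the share of all genes, so nothing is read from them.

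Among 38 tissue-restricted basic helix-loop-helix partners of E proteins, 1 was lower and none higher (median change -0.01), and 26 were below the array median in every array. The one that fell was ASCL2, which acts in stem cells of the intestinal crypt, at log2 11.18 ± 0.02 in SAH-BCL9B and 11.70 ± 0.06 in vehicle (SD, n = 3; change -0.52 ± 0.08, SE, limma adjusted p = 0.023). Both of its probe sets had negative changes. When arrays were left out singly it passed only with SAH-BCL9B 2 left out (highest adjusted p = 0.133).

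Of 11 genes of the HES, HEY and BHLHE40 families, which encode repressors of the same structural class, 2 rose and none fell (median 0.09). BHLHE40, a repressor of circadian and stress-response genes, was at log2 10.97 ± 0.14 in SAH-BCL9B and 10.01 ± 0.10 in vehicle (SD, n = 3; change 0.96 ± 0.10, SE, limma adjusted p = 0.0089). Its paralog BHLHE41 was at 8.46 ± 0.08 in SAH-BCL9B and 7.49 ± 0.17 in vehicle (change 0.97 ± 0.11, adjusted p = 0.0101). Both probe sets of BHLHE40 were higher, whereas the other 3 of BHLHE41 were dim and 2 of them had negative changes, so that the mean of its 4 gave 0.22. BHLHE40 missed the threshold when vehicle 1 was left out, and BHLHE41 when SAH-BCL9B 1, SAH-BCL9B 3 or vehicle 1 was (highest adjusted p = 0.067 and 0.076).

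BMP signalling, the best-known input to ID genes, was covered by 3 lists. Of 18 BMP ligands, receptors and SMADs, 1 fell and none rose (median -0.03). This was SMAD9, which encodes a SMAD of the BMP branch that is itself BMP-induced. Its probe set 227719_at was at log2 5.99 ± 0.41 in SAH-BCL9B and 7.30 ± 0.41 in vehicle (SD, n = 3; change -1.30 ± 0.25, SE, limma adjusted p = 0.0466). The other SMAD9 probe set, 206320_s_at, was dim, at a mean of log2 5.27 in both groups and below the array median throughout. It had a change of -0.00038 (95% interval -0.19 to 0.19), and the mean of both gave -0.65. When arrays were left out singly, SMAD9 passed only with SAH-BCL9B 2 left out (highest adjusted p = 0.188).

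Of 22 BMP inhibitors and negative regulators, 1 fell and none rose (median 0.04). SKIL, which encodes a SMAD corepressor also named SnoN, was at log2 9.20 ± 0.33 in SAH-BCL9B and 10.34 ± 0.10 in vehicle (SD, n = 3; change -1.13 ± 0.16, SE, limma adjusted p = 0.0206). Only 1 of its 5 probe sets passed, 2 had positive changes, and the mean of the 5 gave -0.27. SKIL too passed only with SAH-BCL9B 2 left out (highest adjusted p = 0.101). Of 21 other BMP-induced genes, 2 fell and none rose (median -0.03): SMAD9 again, and RUNX2, a transcription factor of bone formation. RUNX2 was at 11.62 ± 0.03 in SAH-BCL9B and 12.49 ± 0.12 in vehicle in its brightest probe set (change -0.87 ± 0.09, adjusted p = 0.00831), and the mean of its 6 probe sets gave -0.20. Only 1 of the 6 passed and 2 had positive changes. Most of those that did not pass were below the array median in every array. RUNX2 missed the threshold when SAH-BCL9B 3, vehicle 1 or vehicle 2 was left out (highest adjusted p = 0.064). With an unadjusted p under 0.05 there were 7 of the 21, from which nothing is read.

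Of 30 factors known to act on ID gene promoters, 1 rose and 2 fell (median -0.07). CEBPB, a leucine zipper factor of stress and inflammation, was at log2 12.00 ± 0.08 in SAH-BCL9B and 12.77 ± 0.05 in vehicle (SD, n = 3; change -0.78 ± 0.09, SE, limma adjusted p = 0.00941). It missed the threshold when SAH-BCL9B 3, vehicle 1 or vehicle 2 was left out (highest adjusted p = 0.068). ATF4, which drives the response to amino acid shortage, was at 13.95 ± 0.09 in SAH-BCL9B and 14.40 ± 0.04 in vehicle (change -0.44 ± 0.09, adjusted p = 0.0460). The zinc finger gene KLF6 was at 13.26 ± 0.05 in SAH-BCL9B and 12.82 ± 0.08 in vehicle (change 0.44 ± 0.08, adjusted p = 0.0435). All 5 of its probe sets had positive changes, from 0.12 to 0.48, but only 1 passed. KLF6 passed only with SAH-BCL9B 2 left out, and ATF4 with no single array left out (highest adjusted p = 0.202 and 0.206).

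None of 28 genes known to be regulated by E or ID proteins passed, with changes from -0.26 to 0.42 (median 0.05) and 1 at an unadjusted p under 0.05. The list held the cell cycle inhibitor genes CDKN1A, CDKN1B, CDKN1C, CDKN2A and CDKN2B. Of the 28, 14 were below the array median throughout, CDKN2A and CDKN2B among them. None of 27 cofactor and turnover genes of ID and E proteins passed either (limma, changes from -0.42 to 0.32, median 0.03, with 7 at an unadjusted p under 0.05). Nothing is read from the counts at an unadjusted p in either list.

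**Figure D4:**
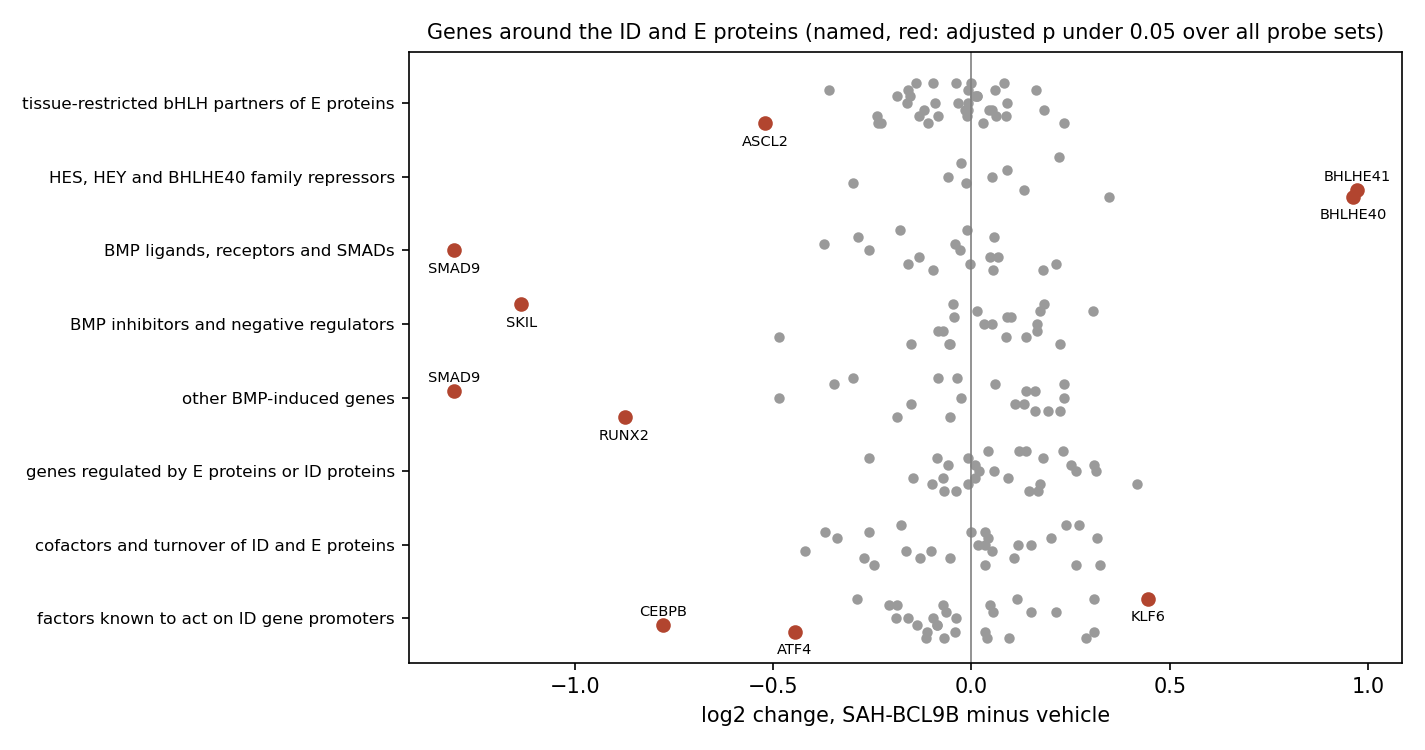
Log2 change (x axis, SAH-BCL9B minus vehicle) of the genes in 8 lists around the ID and E proteins, 1 point per gene; red points with names passed an adjusted p of 0.05 over all probe sets, grey points did not. The red points run from SMAD9 at -1.30 to BHLHE41 at 0.97, and the lists of regulated genes and of cofactors have none.

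The beta-catenin partners that share old names with TCF4 and TCF3 were looked up for that reason, outside the rule for naming genes. TCF7L2 was measured by 7 probe sets, all with negative changes, from -0.46 to -0.19, of which 1 passed. TCF7L1 had 1 probe set, with a change of -0.29 and a 95% interval of -0.63 to 0.06.

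By the root mean square difference over the 6 arrays, after each probe set was set to 0 at its vehicle mean, the 5 genes with the profile most like ID3 were PCP4, CFTR, SYTL5, S100P and CRTAM. The differences were 0.10, 0.13, 0.19, 0.21 and 0.30 log2 units. Their own changes ran from -2.16 for PCP4, a calmodulin-binding protein gene, to -1.93 for CRTAM. All 6 arrays enter this measure, so genes with a change close to that of ID3 come first.

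As a check of the label, 11 of 12 colorectal epithelial markers were above the array median in all 6 arrays. Of the 12, 2 passed the test, KRT8 (log2 14.21 in SAH-BCL9B and 13.71 in vehicle) and VIL1 (8.16 in SAH-BCL9B and 9.02 in vehicle). Of the other markers, 2 of 8 fibroblast, 1 of 6 leukocyte and 1 of 5 endothelial ones were above the array median in all 6 arrays. No fibroblast, leukocyte or endothelial marker passed the test. The mean log2 level of the leukocyte markers was 5.77 to 6.15 in the SAH-BCL9B arrays and 5.75 to 5.87 in the vehicle arrays. For fibroblast markers it was 5.97 to 6.24 in SAH-BCL9B and 5.96 to 6.21 in vehicle, and for endothelial markers 5.60 to 5.72 in SAH-BCL9B and 5.53 to 5.74 in vehicle. Array medians were 6.58 to 6.62, and the number of arrays limits the precision throughout.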

How the data were processed

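The authors deposited a single table of log2 expression for 54675 probe sets on 6 arrays. RMA and affy are named in the submitters' processing notes, their versions not given in the sources used here. The method gives all arrays nearly the same distribution, which would hide a shift common to most genes.

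After removal of 62 control probe sets, the remaining 54613 were fitted with limma 3.58.1 (R 4.3.3, with version 1.17.8 of data.table) by lmFit and eBayes, as SAH-BCL9B minus vehicle without covariates. Benjamini-Hochberg adjustment ran over all of them. SE and 95% intervals are limma's moderated ones. The labels call the cultures triplicates and do not say whether they were independent experiments, so p-values, SE and intervals measure only the spread between these samples, which may be technical. Genes were named from GEO's platform annotation, in which 41091 probe sets name 1 gene, and 41037 of these matched RefSeq by Entrez ID. Promoters are RefSeq's, with windows of the same position counted once. The fit was tested on simulated data. Alternative fits used a replicate block, only probe sets above the overall median, 1 or the average probe set of each gene, arrays centred or quantile-normalized again, a robust variance trend, array weights, covariates for ACTB or array SD, or fewer arrays. Plots were drawn with matplotlib 3.10.9.

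The members, the lists and the tests were chosen with earlier results of these data known. The rule named all member probe sets, at most 4 genes past the threshold in each list, and the 5 genes most like the member with the largest change.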

Additional observations from a re-analysis of the deposited data

How the results depend on the processing

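Over 17 alternative fits, the 9 member probe sets that passed kept a negative change wherever they were fitted. The changes ran from -2.31 to -2.17 for ID3 and from -1.68 to -1.52 for ID1. For 212386_at of TCF4 they ran from -1.78 to -1.08, where -1.08 is the mean of all 8 probe sets. The other lowered TCF4 probe sets had smaller changes in part, smallest for 212385_at, from -0.98 to -0.71. With 1 array left out, 212386_at ran from -1.78 to -1.57. With array SD as a covariate 10 member probe sets passed, the added one being 201566_x_at of ID2 (adjusted p = 0.019, and up to 0.50 over its 15 alternative fits). The number was 3 to 9 with 1 array left out, and 3 of 7 genes with 1 probe set per gene or with the mean of a gene's probe sets, since each gene then counts once. Over all probe sets 1363 passed, against 2725 with a filter on low values (27306 tested), 2923 with trend and robust fitting, 2738 with array weights, 2983 with array SD as a covariate, 836 without vehicle 3 and SAH-BCL9B 2 together, and 97 to 1478 with 1 array left out. Among the list genes 9 passed, against 14 with trend and robust fitting, 15 with array SD as a covariate, and 0 to 10 with 1 array left out (24 at an unadjusted p under 0.05 where limma gave 0). With the replicate number as a block, 171 probe sets passed over all, 8 among the members and 3 among the list genes. Deviations of arrays with the same number correlated from -0.31 to 0.41 over 3 pairs, and 3 of 6 arrays correlated best with their own number. With so few arrays these correlations cannot tell whether the numbers pair the cultures. No named list gene changed sign. Except where given, the cause was not tested. With 3 arrays a group and no signal over background, small changes of dim probe sets such as those of ID4 are beyond these data.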
